A study of Mus musculus with 2 samples.

Results

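Water transport genes were followed through the cell types of the newborn mouse kidney: the aquaporins Aqp1, Aqp2, Aqp3, Aqp4, Aqp5, Aqp6, Aqp7 and Aqp11, and Avpr2, the receptor for vasopressin. These 9 genes were taken by name from the 32285 genes of the deposited tables. All 9 were found, and all 9 passed the filter on low counts.

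Aquaporins are membrane channels that let water, and in some members glycerol or other small solutes, pass through cell membranes. In the kidney, AQP1 serves constitutive water reabsorption in the proximal tubule, thin descending limb and descending vasa recta. In collecting duct principal cells, vasopressin binds its V2 receptor, raises cAMP and moves AQP2 into the apical membrane, while AQP3 and AQP4 let water leave through the basolateral side.

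Aqp2, Aqp5 and Aqp6 lie next to each other on chromosome 15 of GRCm38, all on the plus strand, and their promoters are shown because, of these neighbours, Aqp6 was highest in another cell type than Aqp2 and Aqp5. Aqp2 spans chr15:99579055-99584547, Aqp5 chr15:99590782-99594829 and Aqp6 chr15:99601400-99605477 in GENCODE M21, with gaps of 6234 bases between Aqp2 and Aqp5 and 6570 bases between Aqp5 and Aqp6. No coding gene lies in either gap. The promoter of Aqp3, the fourth gene shown, comes from the minus strand of chromosome 4, where Aqp3 spans chr4:41092722-41098183. Each window runs 5′ to 3′ from 250 bases before the RefSeq start of the gene to 50 bases after it (GRCm38.p6). RefSeq and GENCODE starts differ for Aqp5, whose window lies almost wholly inside the GENCODE span given here, and for Aqp6, whose window ends before that span begins. Capitals mark the searched motifs TGACG, the core of the cAMP response element (CRE), and AGATAA, which zinc finger factors of the GATA family bind, on either strand.
Aqp2, chr15:99578806-99579105: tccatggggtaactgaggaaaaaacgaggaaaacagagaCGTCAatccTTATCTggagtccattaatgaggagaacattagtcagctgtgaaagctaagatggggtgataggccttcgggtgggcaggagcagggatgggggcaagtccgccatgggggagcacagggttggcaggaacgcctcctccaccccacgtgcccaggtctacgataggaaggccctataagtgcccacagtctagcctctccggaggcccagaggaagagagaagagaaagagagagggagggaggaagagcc
Aqp5, chr15:99590778-99591077: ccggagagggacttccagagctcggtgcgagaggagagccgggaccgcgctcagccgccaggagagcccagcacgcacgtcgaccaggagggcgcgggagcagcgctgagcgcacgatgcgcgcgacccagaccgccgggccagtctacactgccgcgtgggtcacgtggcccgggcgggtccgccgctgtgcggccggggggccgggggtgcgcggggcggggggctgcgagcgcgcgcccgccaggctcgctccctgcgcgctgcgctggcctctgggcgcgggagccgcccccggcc
Aqp6, chr15:99600950-99601249: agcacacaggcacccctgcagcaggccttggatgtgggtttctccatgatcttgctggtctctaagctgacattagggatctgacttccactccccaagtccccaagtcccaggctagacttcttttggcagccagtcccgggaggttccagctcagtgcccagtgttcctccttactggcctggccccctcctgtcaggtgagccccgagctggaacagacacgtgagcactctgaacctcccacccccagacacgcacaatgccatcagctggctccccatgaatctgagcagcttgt
Aqp3, chr4:41098134-41098433: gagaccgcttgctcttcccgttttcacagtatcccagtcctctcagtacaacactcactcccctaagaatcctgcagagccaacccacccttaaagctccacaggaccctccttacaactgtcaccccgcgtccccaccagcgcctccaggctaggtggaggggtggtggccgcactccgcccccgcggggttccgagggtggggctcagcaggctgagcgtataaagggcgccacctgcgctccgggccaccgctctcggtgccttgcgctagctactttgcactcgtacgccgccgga

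The Aqp2 window held 1 match to TGACG, whose leftmost base lies 211 bases before the start, and 1 match to AGATAA, 202 bases before it, both on the reverse strand. The windows of Aqp3, Aqp5, Aqp6, Aqp1, Aqp11 and Avpr2 held neither motif, and of the 2 windows listed for Aqp7, a glycerol and water channel, 1 held AGATAA, 132 bases before the start. Of 32851 promoter windows in the table, 20.8% hold TGACG and 11.2% hold AGATAA on either strand. The full element, TGACGTCA, contains the shorter motif and is in 1.79% of them and in none of these members' windows. These are matches of letters and say nothing of binding. Among the other members, Aqp7 lies on the same strand as Aqp3 at chr4:41033074-41048139, with a gap of 44582 bases and no coding gene between them. Aqp1 spans chr6:55336432-55348555 on the plus strand and Aqp11 chr7:97724006-97738289 on the minus strand.

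The study consists of 2 single-cell RNA libraries of kidney at P0, the day of birth. Both carry the genotype Rbpj c/+ ; Foxd1cre/+, that is, 1 copy of an allele written c, not expanded in the labels, of Rbpj, the DNA-binding partner of Notch, and 1 copy of a Cre allele of Foxd1, a gene of stromal progenitors. They therefore form 1 group with n = 2, and with a single genotype among the libraries its effect could not be measured. The labels do not say whether the libraries came from separate animals or litters. Hence no p-value below can be read as a measure of the spread between animals. Each rests only on these 2 libraries. In the main fit it measures how far differences between cell types disagreed between the libraries, pooled over the cell types fitted.

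Replicate 1 held 200331687 counts of unique molecular identifiers (UMIs) and replicate 2 held 173166168. Barcodes were kept from 3000 UMIs and 500 genes upward, with mitochondrial UMIs not above 20%, and 5284 and 4064 cells remained after doublet removal, with 6 barcodes shared between the libraries among those passing. Cell types were gated on fixed marker genes, none of them a member, and each type is called by its markers with the ending "-like". Gates took 69.2% and 69.7% of the cells. In 15 types with at least 20 cells in each library most markers were highest in their own type; in the principal-like type this held for 4 of 7. Levels are in CPM, counts per 1000000 UMIs summed over a type in a library, and errors are SDs over the 2 libraries. Free RNA was read from barcodes under 100 UMIs.

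**Figure D1:**
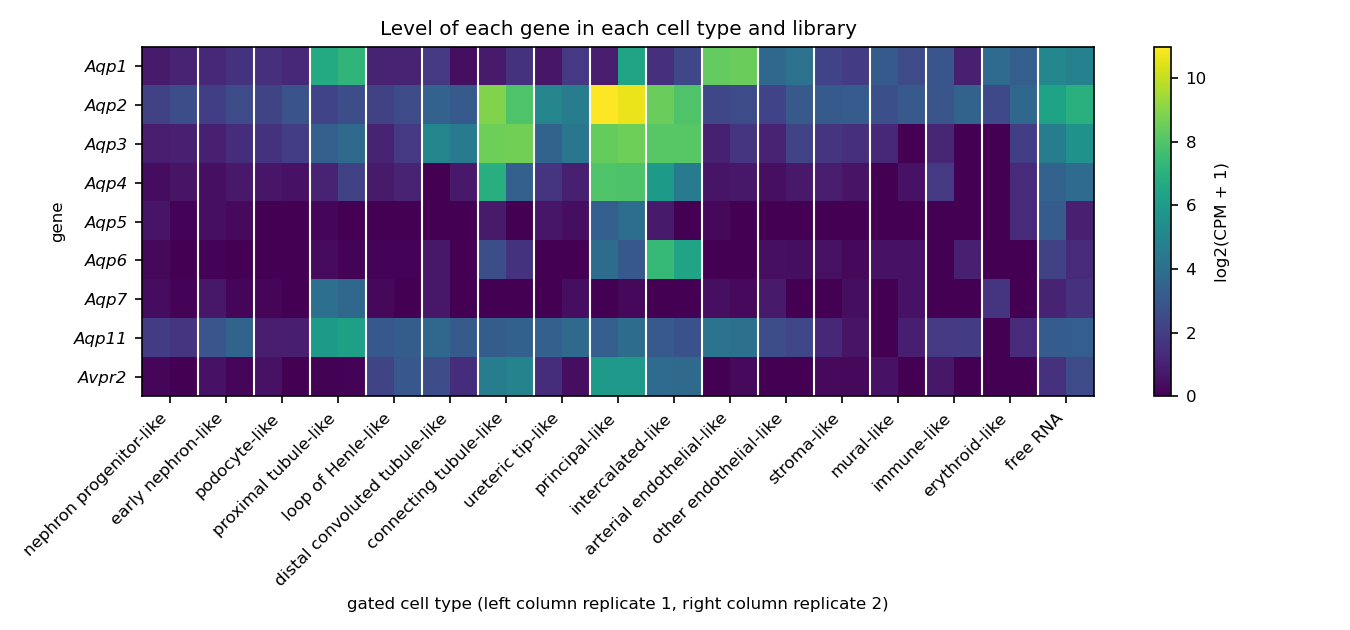
Colour shows log2(CPM + 1) of each gene (rows) in each gated cell type (columns, replicate 1 left and replicate 2 right) and in free RNA. Aqp2, Aqp4, Aqp5 and Avpr2 are brightest in principal-like cells, Aqp6 in intercalated-like cells, Aqp7 and Aqp11 in proximal tubule-like cells, and Aqp1 in arterial endothelial-like and proximal tubule-like cells.

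Aqp2, the vasopressin-regulated apical water channel, was read mainly in principal-like cells, which are the collecting duct cells that reabsorb water and sodium. Its level there was 2032 CPM in replicate 1 and 1605 CPM in replicate 2 (1819 ± 302, SD, n = 2), from 12310 and 9148 UMIs. Those cells were 125 and 111 in number and held 74.6% and 69.0% of all Aqp2 UMIs in cells. Per principal-like cell the median was 52 and 46 UMIs, with a range of 0 to 408 and 0 to 358. Connecting tubule-like cells followed with 480 and 249 CPM and intercalated-like cells with 357 and 245 CPM, and these 2 types overlapped. Ureteric tip-like cells, the branching ends that give rise to the collecting duct, had 30.6 and 23.9 CPM, of which 93.5% and 82.7% came from the 3 highest cells of each library. In the remaining types with at least 20 cells, Aqp2 lay between 3.15 and 12.2 CPM, against 82.9 and 126 CPM in free RNA. When every cell was thinned to 3000 UMIs, an Aqp2 UMI was found in 85.6% (exact 95% interval 78.2 to 91.2) and 83.8% (75.6 to 90.1) of principal-like cells, and in 0.771% and 1.53% of proximal tubule-like cells, which should lack it. Thinning is a random draw, and a second draw gave 87.2% and 81.98% of the same principal-like cells. Without thinning, these shares were 96.0% and 96.4% at median depths of 20125 and 27665 UMIs, and 13.9% and 20.6% at 33423 and 42104 UMIs. Intervals cover counting error only.

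Aqp3, a water and glycerol channel of the basolateral membrane, was spread more evenly over the distal cell types. It was read at 374 and 403 CPM in connecting tubule-like cells, 334 and 379 CPM in principal-like cells and 278 CPM in both libraries in intercalated-like cells. The connecting tubule-like and principal-like values overlapped, and the intercalated-like values lay below both. Distal convoluted tubule-like cells had 31.6 and 21.5 CPM, ureteric tip-like cells 10.3 and 19.1 CPM, and proximal tubule-like cells 9.15 and 12.9 CPM, beside 23.6 and 47.2 CPM in free RNA. Aqp3 was also read at 540 and 384 CPM in urothelium-like cells, but these were 10 and 7 cells and entered no test. In thinned principal-like cells, an Aqp3 UMI was found in 70.1% and 75.3% of cells with an Aqp2 UMI and in 16.7% and 38.9% of those without. The latter shares rest on few cells, since 107 of 125 and 93 of 111 cells had an Aqp2 UMI. Without thinning, when 120 and 107 cells had an Aqp2 UMI, the shares were 96.7% and 97.2% with Aqp2 and 100% and 75% without, so the order turned in replicate 1.

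Aqp4, the other basolateral channel of principal cells, was read at 248 and 239 CPM in principal-like cells (243 ± 6.35, SD, n = 2). The libraries did not match in connecting tubule-like cells, with 123 CPM from 162 UMIs in replicate 1 and 9.28 CPM from 18 UMIs in replicate 2. In replicate 1, 7 of 46 connecting tubule-like cells had 10 or more Aqp4 UMIs, and in replicate 2 none of 70 did. Those 7 cells had a principal marker sum of 2833 CPM, while the 33 cells without an Aqp4 UMI had 765 CPM. Their median depths were 95576 and 12152 UMIs. In replicate 2 the sum was 2028.5 CPM in 8 cells with 1 to 9 Aqp4 UMIs and 1531 CPM in 62 cells without. Intercalated-like cells had 62.6 and 22.5 CPM, and every other type with at least 20 cells was at or below 3.33 CPM, against 10.0 and 13.5 CPM in free RNA. The gene that overlaps it on the other strand, AC133525.2, had no UMI in any gated type.

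Aqp5, best known from salivary, lacrimal and lung glands, was scarce, with 93 and 109 UMIs in all cells. Of these, 53 and 83 UMIs were in principal-like cells, giving 8.75 and 14.6 CPM. No other type with at least 20 cells exceeded 1.52 CPM. Free RNA held 8.07 CPM from 37 UMIs in replicate 1 and 0.982 CPM from 4 UMIs in replicate 2. These are levels within free RNA itself, not its part in cells. The alternative that subtracts free RNA took 3.14% and 1.15% of the principal-like UMIs. Thinned to 3000 UMIs, 1.60% and 2.70% of principal-like cells had an Aqp5 UMI, from 2 and 3 cells, which is too few to rank.

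**Figure D2:**
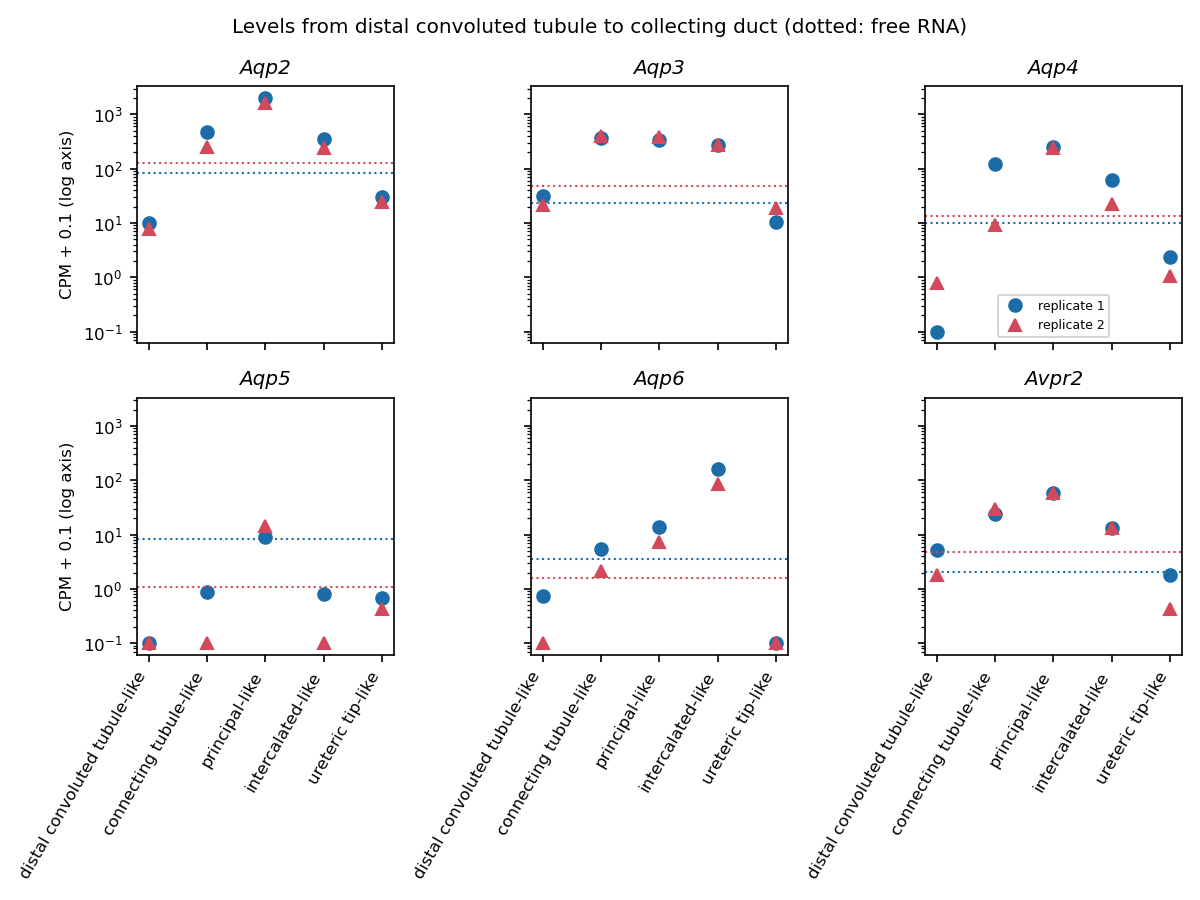
Points show CPM + 0.1 on a log axis for replicate 1 (circles) and replicate 2 (triangles) in 5 cell types, and dotted lines show free RNA in the same colours. Aqp2, Aqp4, Aqp5 and Avpr2 peak in principal-like cells, Aqp6 peaks in intercalated-like cells, and Aqp3 is level across the middle 3 types.

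Avpr2, the V2 vasopressin receptor that couples to cAMP, was read at 58.9 and 58.3 CPM in principal-like cells (58.6 ± 0.481, SD, n = 2). The order below was connecting tubule-like cells at 23.5 and 28.9 CPM, intercalated-like cells at 13.2 and 13.1 CPM, loop of Henle-like cells at 3.73 and 6.99 CPM and distal convoluted tubule-like cells at 5.05 and 1.71 CPM. Principal-like, connecting tubule-like, intercalated-like and loop of Henle-like values did not overlap, while the loop of Henle-like and distal convoluted tubule-like values did. Ureteric tip-like cells had 6 UMIs in replicate 1 and 1 UMI in replicate 2, and proximal tubule-like cells had 1 UMI in each. Free RNA held 1.96 and 4.67 CPM, below the loop of Henle-like value in each library and below the distal convoluted tubule-like value in replicate 1 only. Subtraction of free RNA took 2.15% and 0.998% of the loop of Henle-like UMIs. In the loop of Henle-like type the 45 and 81 UMIs were spread over cells with at most 4 and 6 UMIs each. Avpr2 overlaps L1cam and Arhgap4 on the other strand of chromosome X, where it spans chrX:73892102-73895502, and whether counting used the strand is not given in the sources used here. L1cam, a cell adhesion gene, was also highest in principal-like cells, at 119 and 103 CPM, with 82.6 and 61.9 CPM in connecting tubule-like cells. In ureteric tip-like cells, where Avpr2 was scarce, L1cam was at 23.2 and 22.0 CPM. Arhgap4 was at 4.46 and 4.74 CPM in principal-like cells and 72.5 and 56.8 CPM in immune-like cells. The part of overlapping reads in the Avpr2 values was not tested.

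Principal-like against ureteric tip-like cells compares cells of the newborn collecting duct with the progenitors at the branching ends. In edgeR's quasi-likelihood test over 16466 genes, 7 of 9 members were called higher and none lower at a Benjamini-Hochberg adjusted p below 0.05, where 31.6% of all genes were called. Aqp2 was higher by 6.14 on the log2 scale (SE 0.33, edgeR adjusted p = 1.9e-11), Aqp3 by 4.72 (SE 0.29), Aqp4 by 7.34 (SE 0.70) and Avpr2 by 5.85 (SE 0.48). Aqp5 was higher by 4.77 (SE 0.89, edgeR adjusted p = 6.5e-04), a call lost in DESeq2 (adjusted p = 0.115) and with Leiden clusters in place of gates (edgeR adjusted p = 0.0588). Aqp6 had no UMI in tip-like cells and was at least 23.5-fold higher against the level that 3 counts over both libraries would give, a call lost with Leiden clusters (edgeR adjusted p = 0.238). Aqp11, an intracellular aquaporin, was at 8.75 and 13.7 CPM in principal-like and 9.43 and 12.7 CPM in tip-like cells, a difference of 0.10 (SE 0.30, edgeR adjusted p = 0.845). The median log2 difference was 4.77 over the members and 0.04 over all genes tested.

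The seventh call was Aqp1, and it rested on 1 barcode. In replicate 2, 473 of the 478 Aqp1 UMIs of principal-like cells came from this barcode of 176960 UMIs, which had 1 Aqp2 UMI, 55 UMIs of Wnt7b, 41 of Krt19 and 21 of Cldn19. The other 110 principal-like cells of that library held 5 Aqp1 UMIs, or 0.905 CPM, beside 0.825 CPM in replicate 1. Without the barcode the fitted difference was -0.70 (edgeR adjusted p = 0.533), and the same held for the Aqp1 calls against connecting tubule-like, intercalated-like and loop of Henle-like cells. That left 6, 5, 5 and 6 members called in the comparisons of principal-like with tip-like, connecting tubule-like, intercalated-like and loop of Henle-like cells.

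Of 56 other genes of water balance, 50 were in the fit, and 20 were called higher and 5 lower in principal-like than in tip-like cells. Among 8 transcription factors of the collecting duct, 6 were higher and 1 lower. Elf5, an ETS factor of principal cells, rose by 5.49 (SE 0.43, edgeR adjusted p = 5.5e-09), at 164 and 158 CPM against 6.86 and 0.637 CPM. Slc14a2, the urea transporter of the inner medullary duct, rose by 4.26 (SE 0.43), at 267 and 86.7 CPM against 12.3 and 6.05 CPM. Avpr1a, the V1a vasopressin receptor, rose by 4.52 (SE 0.92) on few counts, 30 and 15 UMIs against 0 and 1. The median over these 50 genes was 0.26. Of 16 tested genes of vasopressin receptors and cAMP signalling, 3 were higher and 3 lower, and of 20 genes of AQP2 trafficking, 7 were higher and 1 lower, where 31.6% of all genes were called in either direction.

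Connecting tubule-like cells, which lie between the distal convoluted tubule and the collecting duct, had less Aqp2 than principal-like cells and as much Aqp3 within error. In that comparison 6 of 9 members were called higher in principal-like cells (21.3% of all genes called), among them Aqp1 on its 1 barcode. Aqp2 was higher by 2.18 (SE 0.27, edgeR adjusted p = 2.4e-06), a call lost after subtraction of free RNA (adjusted p = 0.0770), where the difference itself was again 2.18. Aqp3 differed by -0.31 (SE 0.23, edgeR adjusted p = 0.378). Aqp4 was higher by 2.04 (SE 0.47, edgeR adjusted p = 0.0028), and its difference in log2(CPM + 1) was 1.01 in replicate 1 and 4.54 in replicate 2. That call was lost in DESeq2 (difference 1.87, adjusted p = 0.117) and with only these types in the fit (difference 2.28, adjusted p = 0.0912). Aqp5 was higher by 4.99 (SE 1.17, edgeR adjusted p = 0.0056), lost in DESeq2 (difference 5.23, adjusted p = 0.168). Aqp6 was higher by 1.39 (SE 0.41, edgeR adjusted p = 0.0190), a call lost under 7 alternatives. Avpr2 was higher by 0.94 (SE 0.32, edgeR adjusted p = 0.0414), and this call was lost without the replicate block (adjusted p = 0.143), with the stricter gate (0.167), with only these types in the fit (0.0653), after subtraction of free RNA (0.196) and in DESeq2 (0.208). Its difference was 0.71 with the stricter gate and between 0.91 and 0.95 under the other 4 of these settings. Connecting tubule-like cells also carried principal markers at a summed 1788 and 1632 CPM, against 2363 and 2755 CPM in principal-like and 253 and 226 CPM in distal convoluted tubule-like cells. The part of principal cells within that gate was not tested.

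Within the connecting tubule-like gate, 8 and 14 cells held 10 or more Aqp2 UMIs, and 13 and 31 held none. The cells with 10 or more had principal marker sums of 2806 and 2044 CPM and Aqp3 at 550 and 639 CPM. Those with none had 778 and 1080 CPM of principal markers and Aqp3 at 205 and 157 CPM, at much lower median depths of 6751 and 7439 against 84786 and 40149 UMIs. With the stricter gate, the Aqp2 level of connecting tubule-like cells was 177 and 181 CPM.

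From principal-like to connecting tubule-like cells, 10 of the 50 water balance genes were higher in the former and 6 lower (median 0.03, against 0.05 over all genes, of which 21.3% were called). Slc14a2 was higher by 5.82 (SE 0.60, edgeR adjusted p = 3.0e-07) and Elf5 by 3.0 (SE 0.38). Slc6a12, a betaine transporter that serves osmotic balance, had 19 and 22 UMIs against none and was at least 3.79-fold higher.

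Against distal convoluted tubule-like cells, connecting tubule-like cells had 5 of 9 members called higher, where 5.17% of all genes were called. Aqp2 was higher by 5.38 (SE 0.37, edgeR adjusted p = 6.1e-09), Aqp3 by 3.94 (SE 0.29), Aqp4 by 6.79 (SE 1.10, with 6.95 in replicate 1 and 2.61 in replicate 2 on the log2(CPM + 1) scale) and Avpr2 by 3.20 (SE 0.52, edgeR adjusted p = 5.2e-04). Aqp6 was higher by 3.75 (SE 0.97, edgeR adjusted p = 0.0273) on 11 UMIs against 1, a call lost in DESeq2 and under 4 other settings. The water balance list gave 4 higher and 3 lower genes of 50. Gata2, a zinc finger transcription factor, was higher by 6.42 (SE 0.58), at 85.6 and 72.2 CPM against 1.90 and 0.342 CPM. Elf5 was higher by 4.26 (SE 0.82) and Avpr1a by 3.93 (SE 0.86).

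**Figure D3:**
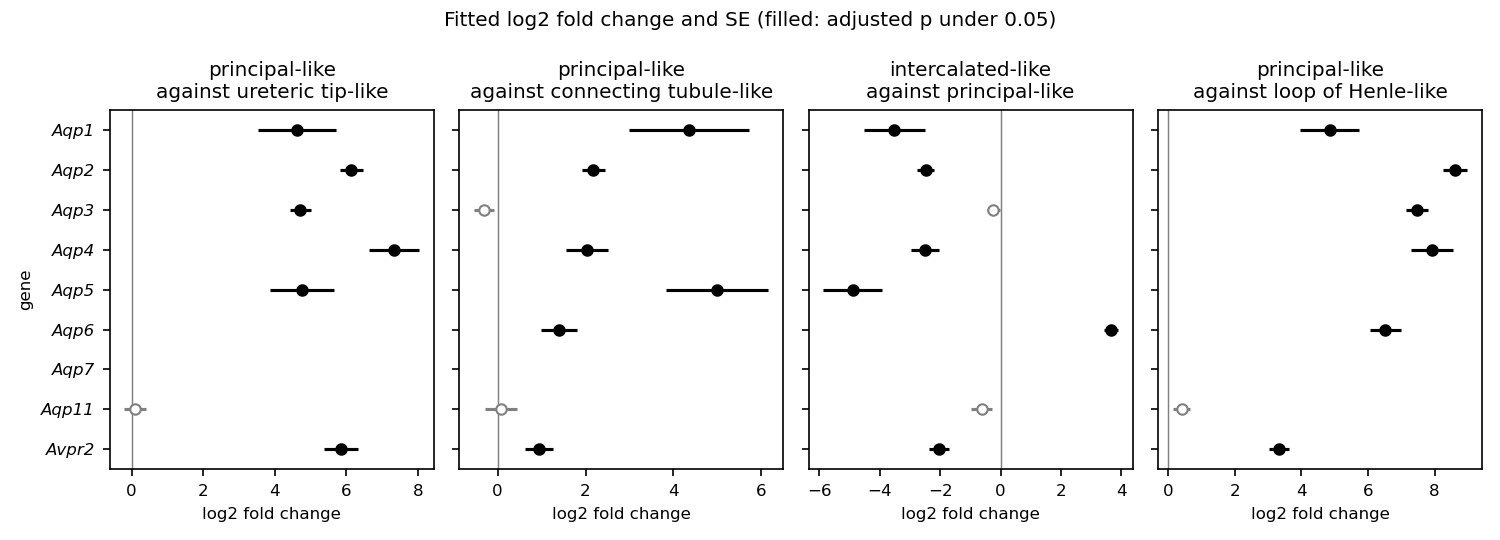
Points show fitted log2 fold changes of each gene with their SE in 4 comparisons of cell types, filled where the edgeR adjusted p was below 0.05; genes under 10 UMIs in all or with a type at 0 are left out. The Aqp1 points rest on 1 barcode of replicate 2, and Aqp6 is the only gene higher in intercalated-like than in principal-like cells.

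Intercalated-like cells, which carry acid and base secretion in the collecting duct, were the main site of Aqp6, an anion-permeable channel of intracellular vesicles in these cells. Aqp6 was at 162 and 84.6 CPM (123 ± 54.7, SD, n = 2) from 453 and 233 UMIs in 82 and 64 cells, which is 64.2% and 74.4% of its UMIs in all cells. Principal-like cells had 13.9 and 7.19 CPM, of which 59.5% and 82.9% came from the 3 highest cells, and connecting tubule-like cells 5.30 and 2.06 CPM. With Leiden clusters in place of gates, Aqp6 in principal-like cells was 0.870 and 0.625 CPM. Principal-like cells with 1 or more Aqp6 UMIs were deep: the 12 and 7 cells with 1 to 9 had medians of 113554 and 82948 UMIs and intercalated marker sums of 959 and 696 CPM, against 181 and 276 CPM in cells without. The share of intercalated-like cells with an Aqp6 UMI was 36.6% and 17.2% after thinning and 68.3% and 46.9% before.

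Intercalated-like cells with Slc4a1 and no Slc26a4, the pattern of acid-secreting type A cells, had Aqp6 at 180 and 114 CPM in 52 and 37 cells. Those with Slc26a4, the chloride-bicarbonate exchanger of type B cells, and no Slc4a1 had 46.8 and 30.9 CPM in 9 cells of each library, from 11 and 9 UMIs. The 8 and 4 cells with both genes had 142 and 107 CPM. Cells with neither gene had 191 CPM in replicate 1 (13 cells) and 9.55 CPM in replicate 2 (14 cells), so they did not follow the Slc4a1 pattern in both libraries. The subsets were split by cells and not tested.

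Compared with principal-like cells, intercalated-like cells had 1 member called higher and 5 lower (25.3% of all genes called), the 5 including Aqp1 on 1 principal-like barcode. Aqp6 was higher by 3.66 (SE 0.22, edgeR adjusted p = 1.9e-09). Aqp2 was lower, at -2.48 (SE 0.27, edgeR adjusted p = 3.6e-07), as were Aqp4 at -2.52 (SE 0.46) and Avpr2 at -2.05 (SE 0.33, edgeR adjusted p = 8.7e-05). Aqp5 was lower at -4.89 (SE 0.98, edgeR adjusted p = 0.0015), a call lost in DESeq2 (adjusted p = 0.115). Aqp3 differed by -0.24 (SE 0.23, edgeR adjusted p = 0.496). Of the 50 water balance genes, 9 were higher and 10 lower in intercalated-like cells. Pde4b, a cAMP phosphodiesterase, was higher by 4.58 (SE 0.36, edgeR adjusted p = 4.9e-09), at 263 and 150 CPM against 11.6 and 6.84 CPM. Avpr1a was higher by 4.46 (SE 0.40), at 81.2 and 72.9 CPM against 4.95 and 2.63 CPM, the reverse of Avpr2. Slc14a2 was lower at -5.66 (SE 0.52).

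Aqp2 in intercalated-like cells was concentrated in a subset. In replicate 1, 22 of 82 cells and in replicate 2, 14 of 64 cells held 10 or more Aqp2 UMIs, while 39 and 36 cells held none. Cells with 10 or more had principal marker sums of 1680 and 1678 CPM, close to each other, against 196 and 223 CPM in cells with none. Avpr2 followed the same split, at 26.5 and 26.3 CPM against 2.60 CPM and no UMI. Aqp6 went the other way, at 89.5 and 64.2 CPM in the cells with 10 or more and 253 and 143 CPM in those with none, as did the intercalated markers, at 4321 and 3704 against 7464 and 9600 CPM. Aqp3 was present on both sides, at 385 and 416 CPM against 135 and 149 CPM. The cells with 10 or more were also deeper, with medians of 50681 and 75958 UMIs against 18710 and 27416 UMIs, and intercalated-like cells as a whole carried connecting tubule markers at 12409 and 12750 CPM. Whether these are cells between types or doublets that remained was not tested. This split was made after the values were seen.

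**Figure D4:**
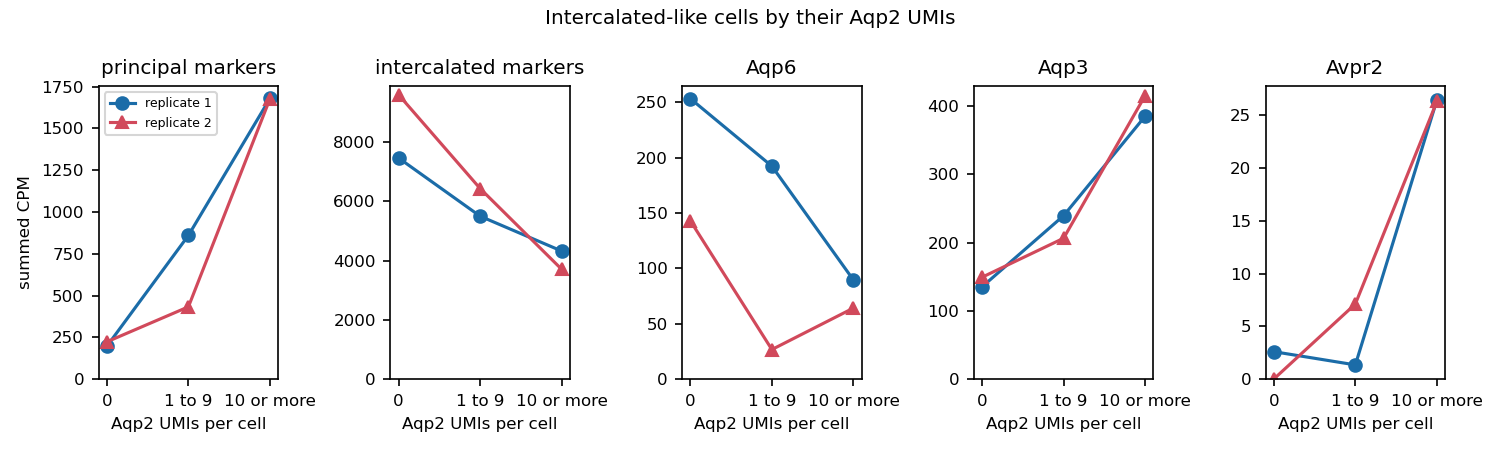
Summed CPM of marker lists and genes in intercalated-like cells grouped by Aqp2 UMIs per cell (0, 1 to 9, 10 or more), in replicate 1 (circles) and replicate 2 (triangles). Principal markers, Aqp3 and Avpr2 are highest in the cells with 10 or more Aqp2 UMIs, at 1680 and 1678 CPM for the principal markers, while Aqp6 and intercalated markers are highest in cells with none.

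Loop of Henle-like cells, marked by genes of the thick ascending limb where vasopressin stimulates salt uptake, were set against both ends of the duct. Principal-like cells had 7 of 9 members called higher than loop of Henle-like cells (29.3% of all genes called), among them Aqp1 on its 1 barcode. Avpr2 was higher by 3.33 (SE 0.31, edgeR adjusted p = 3.7e-08). Aqp2 was higher by 8.61 (SE 0.37), Aqp3 by 7.48 (SE 0.33), Aqp4 by 7.92 (SE 0.64) and Aqp6 by 6.52 (SE 0.46), and Aqp5, with no UMI in the loop, was at least 91.3-fold higher. With Leiden clusters the Aqp6 difference was -0.57 (edgeR adjusted p = 0.677). Of the water balance list, 12 of 50 genes were higher and 7 lower. These included 5 of 8 transcription factors, among them Gata3 at 7.56 (SE 0.33), Gata2 at 8.13 (SE 0.46) and Elf5 at 8.14 (SE 0.48). Gata3, needed for ureteric bud growth, was at 732 and 509 CPM against 2.98 and 2.93 CPM.

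Between loop of Henle-like and distal convoluted tubule-like cells, 1 of 9 members was called (12.6% of all genes called). That was Aqp3, lower in the loop at -3.85 (SE 0.37, edgeR adjusted p = 1.4e-07), from 13 and 30 UMIs against 50 and 63. The 3 highest cells held 62.0% and 52.4% of the distal convoluted tubule-like UMIs, where the median cell had none. Avpr2 differed by 0.81 (SE 0.56, edgeR adjusted p = 0.424), and among the alternatives it was called only with Leiden clusters, at 1.35 (edgeR adjusted p = 0.0452). Gata3 was lower in the loop at -5.69 (SE 0.32), whereas Slc6a12 was higher by 4.14 (SE 0.60) and Anxa2, an annexin of membrane traffic, by 2.98 (SE 0.24). In all, 6 of 50 listed genes were higher and 4 lower.

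Proximal tubule-like cells, which reclaim most of the filtrate, carried Aqp1, Aqp7 and Aqp11. Aqp1 was at 105 and 145 CPM (125 ± 28.9, SD, n = 2), with a UMI in 73.3% and 77.1% of 389 and 262 cells before thinning and 24.2% and 28.6% after it. Aqp11, whose loss in mice gives proximal vacuoles and cysts, was at 62.8 and 75.8 CPM, and its UMIs there were 57.5% and 55.4% of those in all cells. Aqp7, a glycerol and water channel of the straight proximal tubule, was at 15.04 and 11.9 CPM from 250 and 154 UMIs, which are 80.9% and 84.6% of all its UMIs. No other type with at least 20 cells exceeded 2.20 CPM of Aqp7. Free RNA held 33.4 and 27.5 CPM of Aqp1, 8.07 and 8.84 CPM of Aqp11 and 1.09 and 1.96 CPM of Aqp7. Aqp11 in principal-like, ureteric tip-like, loop of Henle-like, connecting tubule-like and distal convoluted tubule-like cells lay between 7.04 and 13.7 CPM. In podocyte-like, stroma-like and mural-like cells of the same libraries it did not exceed 1.39 CPM.

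Early nephron-like cells are the renal vesicle and its derivatives from which the tubule forms. Against them, proximal tubule-like cells had 4 of 9 members called higher and none lower, where 57.2% of all genes were called. Aqp1 was higher by 6.39 (SE 0.81, edgeR adjusted p = 4.9e-07), Aqp7 by 5.28 (SE 0.61), Aqp11 by 3.26 (SE 0.24, edgeR adjusted p = 1.2e-10) and Aqp3 by 3.26 (SE 0.37). Aqp4 had 19 and 43 UMIs against 4 and 6, a difference of 2.29 (SE 0.99, edgeR adjusted p = 0.0524) that passed the threshold in DESeq2 (adjusted p = 0.0401) and under 5 other settings, while its level of 1.14 and 3.33 CPM lay below free RNA. The water balance list gave 21 higher and 12 lower genes of 50. Oxtr, the oxytocin receptor, which also binds vasopressin, was lower at -4.20 (SE 0.27, edgeR adjusted p = 2.4e-11), at 1.56 and 1.47 CPM against 32.9 and 33.1 CPM. Tfcp2l1, a grainyhead-family factor, was higher by 2.86 (SE 0.23), and Elf5 by 2.78 (SE 1.15) on 8 and 13 UMIs against 1 in each library.

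Against loop of Henle-like cells, the proximal tubule-like cells had 4 members called higher and 1 lower (41.5% of all genes called). Aqp7 was higher by 7.18 (SE 0.73, edgeR adjusted p = 8.8e-08), Aqp1 by 6.94 (SE 0.84), Aqp11 by 3.29 (SE 0.24) and Aqp3 by 2.70 (SE 0.34). Avpr2 was lower in the proximal tubule-like cells at -5.81 (SE 0.67, edgeR adjusted p = 3.4e-07). Of the water balance genes, 11 of 50 were higher and 13 lower. Slc5a3, the inositol transporter of hypertonic medulla, was lower at -4.99 (SE 0.22), at 9.39 and 6.27 CPM against 296 and 250 CPM. Slc6a12 was lower at -6.30 (SE 0.53) and Grhl2, an epithelial factor, at -3.99 (SE 0.30).

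Aqp1 was also read in endothelium, where most of its UMIs lay in arterial cells. Endothelial-like cells as a whole had 155 and 154 CPM. The arterial endothelial-like cells, defined by at least 2 of 5 arterial genes (Gja5, Gja4, Sox17, Sema3g and Bmx), had 321 and 351 CPM in 218 and 165 cells, while those with none of these genes had 11.9 and 15.9 CPM and those with 1 had 14.5 and 13.1 CPM. The rule goes by detection, and depth differed too. The arterial cells held 5354752 and 4746188 UMIs, and the 249 and 214 cells with none of the genes held 2761796 and 2956941. The part of depth was not tested. The difference of arterial from other endothelial-like cells was 4.62 (SE 0.72, edgeR adjusted p = 1.2e-04). Aqp11 was also higher, by 1.81 (SE 0.36, edgeR adjusted p = 0.0015), at 17.0 and 15.6 CPM against 5.07 and 4.06 CPM. These were 2 of 9 members, where 9.63% of all genes were called. Proximal tubule markers were at 44.96 and 67.2 CPM in the arterial cells with 10 or more Aqp1 UMIs and at 45.01 and 32.5 CPM in those without a UMI. Erythroid markers were at 348 and 155 CPM in the former and 106 and 52.1 CPM in the latter, whose median depths were 36734 and 23106 against 12279 and 13559 UMIs; their part in the result was not tested.

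**Figure D5:**
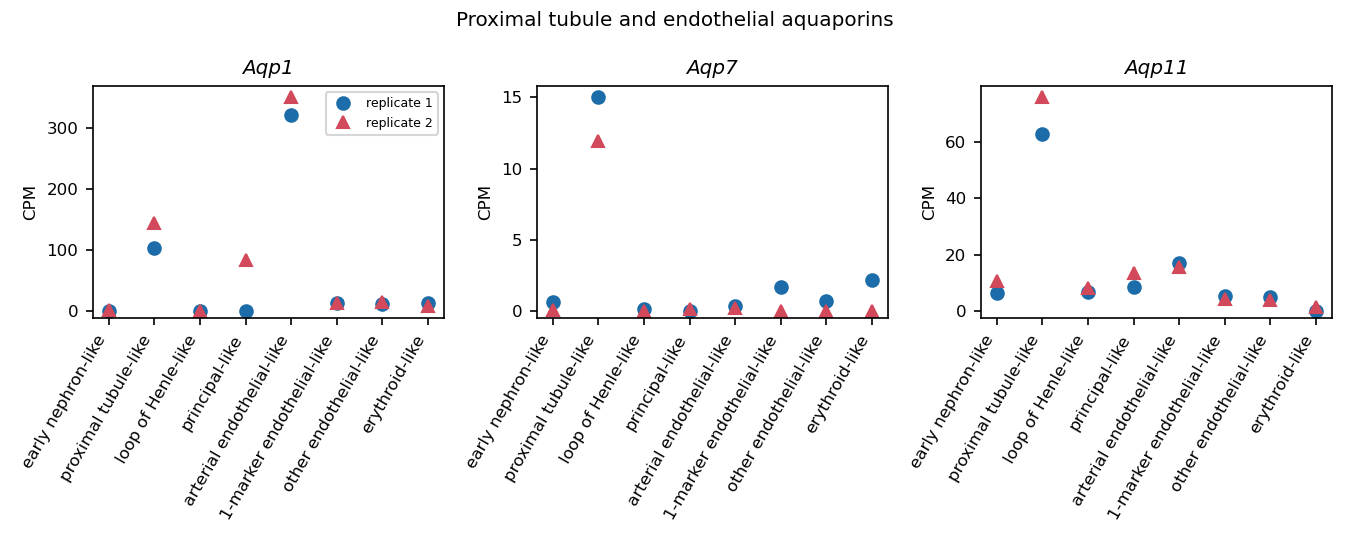
Points show CPM of Aqp1, Aqp7 and Aqp11 in 8 cell types for replicate 1 (circles) and replicate 2 (triangles). Aqp1 is high in proximal tubule-like and arterial endothelial-like cells, and the single raised principal-like point, 83.9 CPM in replicate 2, comes from 1 barcode.

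Within the arterial endothelial-like cells, Aqp1 was uneven: the median was 1 UMI per cell in both libraries, and 37 and 42 cells held 10 or more, up to 128 and 215. Slc14a1, the urea transporter of the descending vasa recta, had 165 and 38 UMIs in these cells (104 and 24.3 CPM) and 0 and 1 UMI in the 83 and 70 arterial cells without Aqp1. Arterial marker sums were 2021 and 1954 CPM in the cells with 10 or more and 499 and 436 CPM in those without. Plvap, a gene of fenestrated capillaries and ascending vessels, ran the other way, at 113 and 207 against 371 and 687 CPM. The gate already used 5 arterial genes, and the split by Aqp1 was made after seeing the values, so these are descriptions. Across the comparison of arterial with other endothelial-like cells, 8 of 50 water balance genes were higher and 1 lower, where 9.63% of all genes were called. Slc14a1 had 166 and 49 UMIs against none, at least 40.6-fold higher, Slc6a6, a taurine transporter, was higher by 2.60 (SE 0.23) and Oxtr by 2.83 (SE 0.43).

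Other aquaporins were scarce, with Aqp8 at 17 and 12 UMIs in proximal tubule-like cells and Aqp9 at 8 UMIs and 1 UMI in immune-like cells. Mip, Aqp8, Aqp9 and Aqp12, together with Avp and Avpr1b, did not pass the filter on low counts.

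The genes whose levels ran most like each member over 15 cell types were named by Pearson's r of mean log2(CPM + 1); the types share libraries and depth, so r is a description. Aqp2 was most like Fxyd4 (r = 0.984), a gate marker of principal cells that regulates the sodium pump, then Nhlrc4 (0.982) and Elf5 (0.982). Aqp4 was most like Elf5 (0.987), Fxyd4 (0.972) and Aqp2 itself (0.971). Avpr2 was most like Bicdl2 (0.947), Nhlrc4 (0.932) and the gate marker Krt19 (0.924). Aqp3 ran with A930017K11Rik (0.957), Rnf186 (0.955) and the gate marker Scnn1b (0.953), a subunit of the epithelial sodium channel. For the scarce Aqp5 they were Asic5 (0.965), Crisp1 (0.963) and Gm45680 (0.963).

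Aqp6 was most like 2610016A17Rik (0.995), Dmrt2 (0.991) and Tldc2 (0.991). Aqp7 was most like Agxt2 (0.988), Slc13a1 (0.987) and Ugt2b37 (0.985), of which Slc13a1 is a proximal sulfate transporter. Aqp11 ran with Slc25a10 (0.929), a mitochondrial dicarboxylate carrier, 1700034H15Rik (0.925) and Kcnk5 (0.920), a potassium channel. The lowest likeness was that of Aqp1, with 9230102K24Rik (0.878), Gimap9 (0.848) and Gimap1 (0.835). The principal-like level of Aqp1 used here includes the 1 barcode with 473 Aqp1 UMIs, and r was not computed without it.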

How the data were processed

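Raw UMI counts per gene and barcode were deposited for all barcodes, made with Cell Ranger 4 per the file headers and Cell Ranger 6.0.1 with build mm10 per the submitters' processing notes; the difference is not explained in the sources used here. Per the labels, cells were processed on the Chromium system and 3′ ends were sequenced. Scrublet (scanpy 1.11.5) scores were used to remove the top 0.8% per 1000 cells, 245 and 142 cells, because the automatic threshold marked only 1 and 44. Cells were gated per library by the mean z-score (capped at 5) of log-normalised markers: score at least 0.75, margin at least 0.5 and 3 markers detected. The gate rule was set after the files were seen. Counts were summed per library and type (at least 20 cells in both) and fitted in 1 model with the library as a block (edgeR 4.0.16, limma 3.58.1, R 4.3.3): 16 types, with endothelium divided, 32 sums, 15 residual degrees of freedom, trimmed-mean scaling and filterByExpr. Quasi-likelihood tests (two-sided) covered 16466 genes that were not gate markers. In simulated data for principal-like against tip-like cells (16354 genes), 23% of 2-fold and 99% of 4-fold changes were recovered. That simulation gave every gene the same spread and changed only genes above a low level. Its shares therefore may not hold for scarce members or for members with a larger SE. Alternatives were DESeq2 1.42.0 and other cell, gate and scaling rules. Pairing comes from the library itself, since all types compared within a replicate were summed from the same library. Named genes are all members, the 3 genes most like each, and up to 3 called water balance genes with the largest change per comparison. Members and lists were chosen with earlier results of these data known. Gene spans are from GENCODE M21 and promoters from RefSeq; nothing of the sequence of Aqp4 is shown, and amino acid sequences were not used here.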

Additional observations from a re-analysis of the deposited data

How the results depend on the processing

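Of 99 counts of called members recomputed under an alternative, 93 stayed within 1.5 times the main count. For principal-like against connecting tubule-like cells the 6 calls became 3 with the stricter gate, 3 in DESeq2, 2 after subtraction of free RNA and 2 with only these types in the fit. Leiden clusters gave 4 in place of 7 calls against ureteric tip-like cells, and 2 in place of 1 for loop of Henle-like against distal convoluted tubule-like cells. Of 43 called fold changes, 40 were kept without the replicate block, with no sign turned. The 3 calls lost were Aqp6 and Avpr2 of principal-like against connecting tubule-like cells, leaving 4 calls there, and Aqp6 of connecting tubule-like against distal convoluted tubule-like cells, also leaving 4. RLE scaling and no low count filter kept all 43.

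Aqp1 turned sign in its called comparisons with the stricter gate and without its 1 deep barcode in the principal-like sum. With the stricter gate the values were -0.70 against tip-like, -1.09 against connecting tubule-like, -0.19 against loop of Henle-like and 1.86 for intercalated-like against principal-like cells, and without that barcode (chosen after seeing the data) -0.70, -0.998, -0.46 and 1.81. Leaving out each library gave differences in log2(CPM + 1) of the library that remained, which are not fitted values. These were -4.09 to 0.61 for intercalated-like against principal-like and -0.19 to 5.32 for principal-like against loop of Henle-like cells. The turned value was that without replicate 2. Leiden clusters gave a fitted 1.13 for intercalated-like against principal-like cells. For principal-like against tip-like, connecting tubule-like and loop of Henle-like cells they gave 0.16, 0.28 and 0.02, not turned and not called. Leiden clusters turned Aqp6 of principal-like against loop of Henle-like cells to -0.57, and subtraction of free RNA turned Aqp2 of proximal tubule-like against loop of Henle-like cells from 0.15, not called (edgeR adjusted p = 0.787), to -6.90, called (edgeR adjusted p = 0.0261). Subtraction took 5.74% and 5.32% of the proximal tubule-like UMIs and 2.15% and 0.998% of the loop of Henle-like UMIs. The cause of these turns was not tested. With 1 library there are no residual degrees of freedom, so no count of calls was made without a replicate.

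Levels in the type where a member was highest moved by more than the SD of 2 libraries in 14 of 63 cases. The 63 include the cases that left out a library, which cannot move by this rule. Mean Aqp1 in endothelial-like cells was 155 CPM at 5000 UMIs, 146 with doublets kept, 151 with the stricter gate, 153 with clusters and 171 after subtraction of free RNA. Aqp2 in principal-like clusters was 2208 CPM and Aqp3 in connecting tubule-like cells 359 with the stricter gate. Aqp4 in principal-like cells was 236 with doublets kept, 263 with the stricter gate and 295 with clusters, and Avpr2 was 55.8, 63.2 and 70.8 there, and 59.8 after subtraction. Leaving out each library gave 154 to 155 CPM for Aqp1, 1605 to 2032 for Aqp2, 374 to 403 for Aqp3, 239 to 248 for Aqp4, 8.75 to 14.6 for Aqp5, 84.6 to 162 for Aqp6, 11.9 to 15.04 for Aqp7, 62.8 to 75.8 for Aqp11 and 58.3 to 58.9 for Avpr2.

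Shares of cells moved by more than the SD of 2 libraries in 25 of 45 cases, but each thinned share is 1 random draw. A second draw of the unchanged cells gave 59.2% and 46.8% for Aqp4 (48.8% and 48.6% in the first), 52.2% and 61.4% for Aqp3 (45.7% and 48.6%) and 4.0% and 1.80% for Aqp5 (1.60% and 2.70%). Moves of that size under the cell and gate rules therefore cannot be told apart from the draw. Without thinning they were 24.1% for Aqp1 in endothelial-like cells, 96.2% for Aqp2, 85.3% for Aqp4, 28.1% for Aqp5 and 68.0% for Avpr2 in principal-like cells, 75.2% for Aqp3 in connecting tubule-like cells, 57.6% for Aqp6 in intercalated-like cells, and 39.3% for Aqp7 and 80.6% for Aqp11 in proximal tubule-like cells. At 5000 UMIs they were 87.0% for Aqp2, 53.9% for Aqp3, 53.7% for Aqp4 and 4.02% for Aqp5. With doublets kept they were 44.6% for Aqp3, 44.7% for Aqp4 and 4.21% for Aqp5. The stricter gate gave 90.1% for Aqp2, 43.1% for Aqp3, 48.3% for Aqp4, 5.27% for Aqp5, 19.5% for Aqp11 and 21.7% for Avpr2, and clusters gave 93.5% for Aqp2, 52.6% for Aqp3 and 54.0% for Aqp4. Depth limits these shares, and the 2 libraries limit every test.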

Other observations

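Some ungated cells carried much Aqp1 and little Aqp2. Among ungated cells whose highest score was that of principal cells, 2 in replicate 1 held 145 Aqp1 UMIs and 3 in replicate 2 held 301, with 0 and 1 Aqp2 UMI. The same cells held 13 and 57 UMIs of Wnt7b, 5 and 39 of Krt19 and 8 and 12 of Cldn19, genes also read in the principal-like barcode with 473 Aqp1 UMIs. Together with that barcode they are too few to form a type here.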
